A study of Mus musculus with 8 samples.

Results

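Inherited optic neuropathies and familial glaucoma share a target, the retinal ganglion cell (RGC), the neuron whose axon forms the optic nerve. The genes described here are Opa1, Mfn2, Opa3, Afg3l2, Spg7, Optn, Tbk1 and Wfs1, which were listed because mutations in their human counterparts have been linked to such disease. They were found by symbol in the gene list of the count matrices, where all 8 occur among 33696 genes. Single-nucleus RNA-seq was done on sorted retinal nuclei of female mice at postnatal day 120, with 4 libraries of Piezo2f/f mice without cre (control) and 4 libraries of Olig2-cre;Piezo2f/f mice (cKO). Both groups carry the floxed Piezo2 alleles, and the cKO mice differ by an Olig2-driven cre meant to remove Piezo2 from the oligodendrocyte lineage. The paper states that the cKO mice are heterozygous for Olig2, the gene that carries the cre. No library came from Olig2-cre mice without floxed Piezo2, so Piezo2 removal and Olig2 heterozygosity cannot be told apart. Each library pooled 6 retinae and was sorted for nuclei positive for NeuN and RBPMS, so a library is a pool of retinae and not 1 animal. The sort was meant to enrich RGC nuclei. Nuclei of other classes are those that passed it, and they need not represent their class in the whole retina.

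As background, OPA1 and MFN2 are the GTPases that fuse the inner and outer mitochondrial membranes, and AFG3L2 and SPG7 (paraplegin) are subunits of the m-AAA protease of the inner membrane. OPA3 is a small mitochondrial membrane protein. Optineurin, the product of Optn, is an autophagy receptor that is phosphorylated by the kinase TBK1, and wolframin, the product of Wfs1, is a membrane protein of the endoplasmic reticulum. RGC axons are unmyelinated within the eye and rich in mitochondria, and optic nerve disease is among the disorders linked to these broadly expressed genes, several of which also affect other parts of the nervous system.

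The libraries held 35697629 to 60088630 unique molecular identifiers (UMIs, counted molecules) each, and 34935 nuclei were kept. Nuclei were assigned by marker UMIs to RGC (15306 nuclei), rod (2560), bipolar (1086), amacrine (655), Müller glia (644) and cone (447) gates, and 14227 passed no gate (horizontal, vascular and microglial gates held 4, 5 and 1). No nucleus passed the oligodendrocyte or astrocyte gate, and recombination was not measured in any class. Nuclei outside all gates carried 748 oligodendrocyte and 732 astrocyte marker UMIs, under 0.1 per 10000 UMIs each. They also carried 13.1 RGC and 4.64 amacrine marker UMIs per 10000, against 25.5 and 18.0 in the RGC and amacrine gates themselves. A gate thus need not hold all nuclei of its class, and favours those rich in its markers. Piezo2 in RGC nuclei was at 12.8 to 17.5 UMIs per 1000000 (CPM) in control and 9.40 to 17.2 CPM in cKO libraries, and these ranges overlap. Depth differed between gates. The median RGC nucleus held 4952 to 11264 UMIs across libraries, against 869.5 to 1362 for rods. All summed UMIs of a gate in a library were treated as 1 value, so n counts libraries, and fewer UMIs of a gene per nucleus cannot be told apart from fewer nuclei that hold it. Limits given for 0 UMIs cover counting error only.

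In RGC nuclei of control mice, Opa1 was at 79.9 ± 3.45 CPM (SD, n = 4), Tbk1 at 63.5 ± 6.84, Spg7 at 60.3 ± 5.89 and Afg3l2 at 58.5 ± 2.09 CPM. Optn was at 39.1 ± 3.47, Mfn2 at 34.4 ± 1.69 and Opa3 at 14.8 ± 1.73 CPM. Wfs1 had the lowest level, 4.80 ± 1.05 CPM. Per kilobase of gene span the order changed. Spg7 stood at 1.67 ± 0.163 CPM per kilobase and Tbk1 at 1.57 ± 0.169, whose SDs overlap. Afg3l2 followed at 1.26 ± 0.0448, Opa1 at 1.06 ± 0.0456, Mfn2 at 1.01 ± 0.0495 and Optn at 0.846 ± 0.0750 CPM per kilobase. Opa3, at 0.523 ± 0.0612, and Wfs1, at 0.101 ± 0.0221, stayed last. A per-length level from libraries that tag the 3′ end of transcripts is a rough scale, because molecules are not sampled along the gene.

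Empty droplets, which carry free RNA, held each of these genes too. Wfs1 was at 34.4 ± 7.96 CPM in the empty droplets of control libraries, above its mean in every gated class of control libraries. Opa3 (31.1 ± 2.54 CPM) and Mfn2 (83.9 ± 4.92 CPM) were also higher in empty droplets than their mean in any class of control nuclei, while Optn was at 64.6 ± 10.0 CPM there. Marker UMIs of another class (rod markers in RGC nuclei, RGC markers elsewhere) gave an estimate of the share of free RNA. It was 1.77 to 2.84% in control RGC nuclei and 7.0 to 15.1% in control rods (12.2 to 21.5% in cKO rods). The gates themselves limit such UMIs, so this share can be too low and is no upper limit. Rod nuclei held 7.67 RGC marker UMIs per 10000 UMIs, against 25.5 in RGC nuclei, whose part in the comparisons with rods was not tested.

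**Figure D1:**
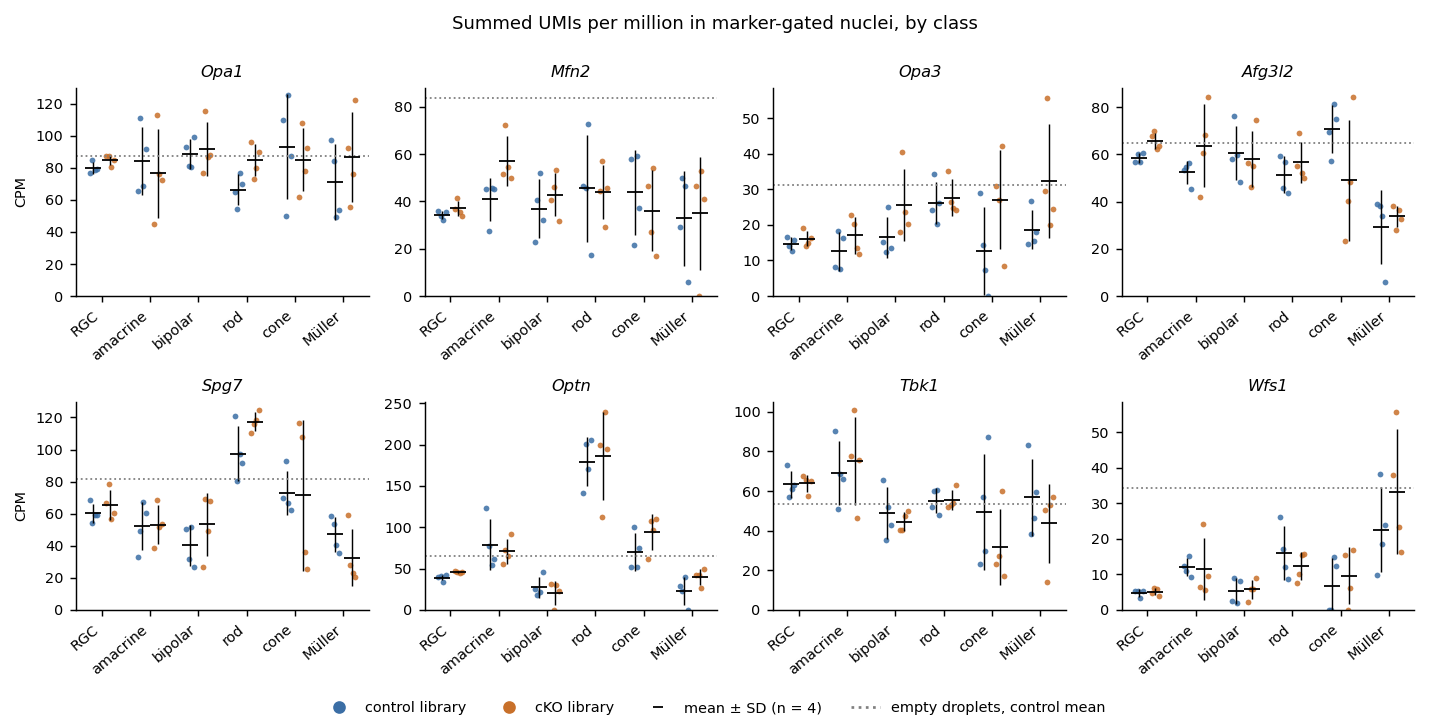
CPM (summed UMIs per 1000000, linear axis from 0) of the 8 genes in 6 marker-gated classes. Points are libraries (blue control, orange cKO), black bars the mean ± SD (n = 4), and the dotted line the mean of empty droplets in control libraries. Rods held Optn at 112 to 240 CPM, apart from RGC nuclei at 34.2 to 46.7 CPM, and Wfs1 in RGC nuclei stayed between 3.22 and 6.05 CPM.

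RGC nuclei were compared with each other class within the same libraries. The question was whether these disease genes differ between the cell lost in optic neuropathy and the other retinal nuclei that passed the sort. A gene was called where edgeR's quasi-likelihood test gave an adjusted p under 0.05 over all genes tested and the log2 fold change was beyond 0.5. In control libraries 13 of 40 tests of the 8 genes were called, 8 higher and 5 lower in RGC nuclei. Against amacrine nuclei 2 of 8 were called, beside 22.8% of all genes tested, and against bipolar nuclei 2 of 8, beside 42.9%. Against rods 4 of 8 were called, beside 41.3%, against cones 1 of 8, beside 39%, and against Müller glia 4 of 8, beside 43%. With 8 genes these shares lie near or below those of all genes, except that 2 of 8 against amacrine nuclei and 4 of 8 against rods and Müller glia lie slightly above them. In cKO libraries 13 of 40 were called, 6 higher and 7 lower: 2 of 8 against amacrine (background 20.4%), 2 against bipolar (41.2%), 4 against rods (43.2%), 2 against cones (36.7%) and 3 against Müller glia (40.8%).

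The scale on which RGC and other nuclei were compared matters for the small differences. TMM scaling, used in the test, raised all fold changes of RGC over cone by 0.47 on the log2 scale in control libraries, over rod by 0.30 and over Müller glia by 0.21, compared with library totals. After TMM scaling the median of all genes stood at 0.35 against cones, 0.17 against Müller glia and 0.07 against rods. With library totals it stood at -0.12 against cones, -0.04 against Müller glia and -0.22 against rods. On that scale 11 tests of the 8 genes were called in control libraries, 3 higher and 8 lower in RGC nuclei. In cKO libraries 12 were called, 4 higher and 8 lower. The share of all genes called on that scale is not given here, so these counts have no background beside them. The direction of the balance thus turned with the scale in control libraries, and each call gained or lost with library totals is given with its gene.

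**Figure D2:**
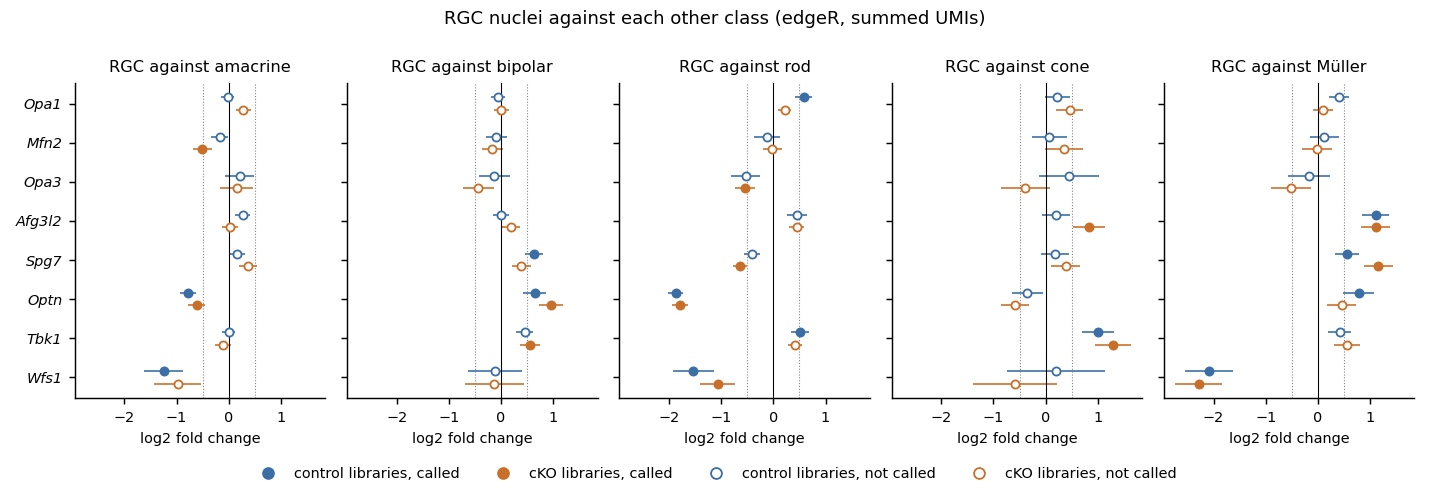
Log2 fold change (x axis, linear in log2 units) of the 8 genes in RGC nuclei against each other class, in control (blue) and cKO (orange) libraries. Points are edgeR estimates, horizontal bars their standard errors, filled points called genes, and dotted lines ± 0.5. Optn lay at -1.87 and -1.79 against rods and Wfs1 at -2.09 and -2.28 against Müller glia.

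Among the genes of membrane fusion, Opa1 and Mfn2 each differed at most 1.4-fold between the control means of the 6 classes. Opa1 lies on chromosome 16 (chr16:29398108-29473858, GRCm39, plus strand, 29 exons). Opa1 CPM in control RGC nuclei was 76.9, 84.9, 78.4 and 79.5, and in control rods 65.0, 54.3, 76.9 and 69.8. All 4 rod values lay below the lowest RGC value, the highest of them only just. Opa1 was called higher in RGC nuclei than in rods in control libraries (log2 0.58 ± 0.17 SE, edgeR adjusted p = 0.00947), but not with library totals (log2 0.28, adjusted p = 0.203), without control replicate 2 (log2 0.47; kept under 7 of 12 alternatives in all) or in cKO libraries, where its level in rods was 84.9 ± 10.3 CPM and in RGC nuclei 85.0 ± 3.26. In the other control comparisons Opa1 lay between -0.06 and 0.40 and was not called.

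Mfn2 (chr4:147955508-147989585, minus strand, 19 exons) was not called against any class in control libraries, with log2 fold changes of -0.17 to 0.12. Its control mean ran from 32.8 CPM in Müller glia (5.96 to 49.7 CPM) to 45.6 CPM in rods (17.4 to 72.8 CPM), and the ranges of all classes overlapped that of RGC nuclei. In cKO libraries Mfn2 was at 51.8, 72.5, 54.5 and 49.8 CPM in amacrine nuclei and 37.0, 41.6, 35.7 and 33.9 CPM in RGC nuclei. All 4 amacrine values were the higher ones, and the gene was called lower in RGC nuclei (log2 -0.51 ± 0.18, edgeR adjusted p = 0.0253). This call lay at the fold limit and was kept under 3 of 12 alternatives: it was lost, among others, with DESeq2, with a stricter gate, with thinning and when any of cKO replicates 11, 12 or 13 was left out (log2 -0.52 to -0.47).

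Opa3 (chr7:18962253-18990475, plus strand, 2 exons) was low in every class. Control rods held 24.2, 34.3, 20.2 and 26.2 CPM, and control RGC nuclei 12.7 to 16.6 CPM. The 2 sets do not overlap, yet the difference was not called in control libraries (log2 -0.53 ± 0.28, edgeR adjusted p = 0.140), though it was with library totals (log2 -0.83, adjusted p = 0.0257). It was called in cKO libraries (log2 -0.54 ± 0.19, adjusted p = 0.0367), where leaving out any 1 of the 4 libraries ended the call (kept under 3 of 12 alternatives) and restricting nuclei to the deeper barcodes turned the estimate to 0.24.

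Afg3l2 and Spg7, which encode subunits of the m-AAA protease, were called higher in RGC nuclei than in Müller glia, in both genotypes, while Afg3l1, a further subunit in mice, was not (log2 0.62 and 0.21). Afg3l2 (chr18:67535762-67582318, minus strand, 17 exons) was at 56.9, 60.1, 56.6 and 60.6 CPM in control RGC nuclei and at 39.1, 38.2, 34.0 and 5.96 CPM in control Müller glia. No Müller value reached the RGC range, and the lowest one rests on 1 UMI. The gene was called higher in RGC nuclei in control (log2 1.11 ± 0.26, edgeR adjusted p = 8.10e-05) and in cKO libraries (log2 1.11 ± 0.27, adjusted p = 0.000195). Without control replicate 4, which holds the 1 UMI, the fit stayed called, and the range over left-out control libraries was 0.87 to 1.28. The call was lost under a stricter gate in both groups (log2 1.70 and 1.06) and after thinning in cKO libraries (log2 0.81). Against cones Afg3l2 was called higher in RGC nuclei only in the cKO fit (log2 0.83 ± 0.31, adjusted p = 0.0213), a call kept under 5 of 12 alternatives and lost, among others, with library totals (log2 0.40, adjusted p = 0.337) and without cKO replicate 10 (log2 0.56) or 12, and the difference between genotypes was not called.

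Spg7 (chr8:123789681-123825776, plus strand, 17 exons) had its highest mean in rods. Spg7 in control rods was at 121, 80.1, 97.1 and 91.6 CPM, in control RGC nuclei at 68.4, 54.3, 58.9 and 59.4 CPM, and in control Müller glia at 58.6, 53.5, 40.2 and 35.8 CPM. Rods were apart from RGC nuclei, while Müller glia overlapped them. Against rods Spg7 passed the adjusted p but not the fold limit in control libraries (log2 -0.40 ± 0.15, edgeR adjusted p = 0.0407), and it was called with library totals (log2 -0.70, adjusted p = 0.00103). In cKO libraries, with 110, 116, 118 and 124 CPM in rods, it was called lower in RGC nuclei (log2 -0.64 ± 0.13, adjusted p = 0.00153), a call kept under 9 of 12 alternatives and lost, among others, after thinning (log2 -0.36) and with order-of-magnitude nuclei only (log2 -0.39). Spg7 was called higher in RGC nuclei than in Müller glia in control (log2 0.56 ± 0.23, adjusted p = 0.0348) and cKO libraries (log2 1.16 ± 0.28, adjusted p = 0.000125), and higher than in bipolar nuclei in control libraries (log2 0.63 ± 0.18, adjusted p = 0.00239; 0.36 and not called after thinning). The Müller call of control libraries was kept under only 5 of 12 alternatives and was lost, among others, with library totals (log2 0.34), DESeq2 (log2 0.58, adjusted p = 0.115) and without control replicate 3 or 4 (lowest log2 0.48). The Müller call of cKO libraries was kept under every alternative run. With the estimated share of free RNA subtracted, cKO Müller glia held Spg7 at 18.0 to 57.5 CPM. The highest of these values reached the range of cKO RGC nuclei, which began at 56.6 CPM.

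Optn had the widest range across classes, 7.7-fold between the highest and lowest control mean. The gene lies on chromosome 2 (chr2:5022703-5068945, minus strand, 14 exons). Its promoter is shown because rods, the class with the highest level, use the homeodomain factor CRX for much of their gene expression. The 250 bases before the RefSeq start of Optn (RefSeq table, GRCm38.p6, chr2:5064118-5064367, minus strand) read as follows, with a match to the CRX core TAATCC in capitals, 238 bases before the start.
Optn: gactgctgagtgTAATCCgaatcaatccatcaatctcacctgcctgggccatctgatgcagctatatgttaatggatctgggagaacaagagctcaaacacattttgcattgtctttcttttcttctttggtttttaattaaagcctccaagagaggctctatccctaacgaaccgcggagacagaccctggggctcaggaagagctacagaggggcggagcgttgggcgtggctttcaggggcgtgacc
The letters TAATCC, on either strand, occur in 6.25% of 32851 promoter windows of this length, and among the 9 windows of 7 listed genes in Optn alone. The match is a description of the letters, and no binding was measured. The NRF1 core TGCGCA, a motif of many mitochondrial gene promoters found in 6.43% of windows, was present in those of Opa1 and Spg7. Of the other 3 motifs searched on both strands, the core of the unfolded protein response element, TGACGTG (1.65% of windows), occurred in 1 window of Mfn2 and in none of Wfs1, TGACGTC of the cAMP response element (2.78%) in Opa3, and the ERR element AAGGTCA (4.08%) in none.

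Optn CPM in control rods was 141, 200, 170 and 205, from 76, 70, 42 and 47 UMIs, and in control RGC nuclei 39.3, 41.0, 34.2 and 42.0. In cKO libraries rods were at 199, 112, 240 and 194 CPM and RGC nuclei at 46.7, 45.4, 45.0 and 45.6 CPM. All 8 rod values lay above all 8 RGC values. Optn was called lower in RGC nuclei than in rods in control (log2 -1.87 ± 0.14, edgeR adjusted p = 1.31e-08) and cKO libraries (log2 -1.79 ± 0.16, adjusted p = 3.59e-06). Both calls were kept under every alternative run, with sizes that varied. With nuclei called by the order-of-magnitude step alone, which leaves 414 of 2560 rods, the fold changes were -0.99 and -0.74, and thinned to 2000 UMIs a nucleus, with 385 rods, they were -1.38 and -0.97. The rod level stood above that of empty droplets, and subtracting the estimated share of free RNA raised it from 179 to 195 ± 31.1 CPM in control rods.

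Amacrine and cone nuclei were the next classes for Optn. Control amacrine nuclei held Optn at 123, 76.7, 54.8 and 61.6 CPM and control cones at 52.1, 99.8, 51.7 and 74.9 CPM. These 2 classes overlap each other, and both lie above every control RGC library. Optn was called lower in RGC nuclei than in amacrine nuclei (log2 -0.78 ± 0.15, edgeR adjusted p = 3.91e-05 in control; -0.61 ± 0.16, adjusted p = 0.000904 in cKO libraries). The amacrine call was lost under the stricter gate in both groups (log2 -0.69 and -0.57), and in cKO libraries without cKO replicate 13 (log2 -0.37). Against cones the difference was not called (log2 -0.35 ± 0.29, adjusted p = 0.361 in control; -0.59 ± 0.27, adjusted p = 0.0681 in cKO libraries), but with library totals Optn was called lower in RGC nuclei in both (log2 -0.82, adjusted p = 0.0201, and -1.02, adjusted p = 0.00102).

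Bipolar nuclei and Müller glia had less Optn. Control bipolar nuclei were at 25.2, 17.7, 21.2 and 45.7 CPM, of which the last exceeds every control RGC value, and control Müller glia at 29.3, 22.9, 40.2 and 0 CPM, where 0 UMIs allow up to 17.9 CPM. Optn was called higher in RGC nuclei than in bipolar nuclei in control (log2 0.65 ± 0.22, edgeR adjusted p = 0.0128) and in cKO libraries (log2 0.96 ± 0.24, adjusted p = 0.000182). The control call against bipolar nuclei (kept under 7 of 12 alternatives) was lost without control replicate 2 or 3 (lowest log2 0.43), with DESeq2, under the stricter gate and after thinning (log2 0.51). The cKO call was kept under every alternative run. Optn in cKO bipolar nuclei ran from 0 to 31.5 CPM, from 39 UMIs over the 4 libraries. The call against Müller glia in control libraries (log2 0.78 ± 0.30, adjusted p = 0.0224), kept under 6 of 12 alternatives, was lost with DESeq2, without control replicate 2 or 4 (lowest log2 0.47), under the stricter gate, after thinning and with library totals (log2 0.57, adjusted p = 0.118). In cKO libraries Müller glia were at 39.9 ± 9.53 CPM, and Optn was not called there.

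Tbk1 (chr10:121382360-121422848, minus strand, 21 exons), the kinase that acts on optineurin, did not follow Optn across classes. Its control means lay between 49.0 ± 13.0 CPM in bipolar nuclei and 69.0 ± 16.1 CPM in amacrine nuclei, 1.4-fold apart, and neighbours in this order overlapped throughout. Tbk1 in cKO cones was at 23.3, 27.0, 60.1 and 16.9 CPM, against 67.4, 65.5, 57.4 and 65.3 CPM in cKO RGC nuclei. Of the cone values, 1 lay within the RGC range. Tbk1 was called higher in RGC nuclei than in cones in cKO (log2 1.29 ± 0.34, edgeR adjusted p = 0.000675; 2.10 at most with a library left out) and control libraries (log2 1.00 ± 0.31, adjusted p = 0.00451), the latter kept under 8 of 12 alternatives and lost with DESeq2, after thinning, with library totals (log2 0.53, adjusted p = 0.188) and without control replicate 1 (log2 range over left-out libraries 0.58 to 1.25). The control call against rods (log2 0.51 ± 0.18, adjusted p = 0.0297) was kept under only 4 of 12 alternatives (log2 0.21, adjusted p = 0.374 with library totals). A cKO call against bipolar nuclei (log2 0.55 ± 0.19, adjusted p = 0.00895) was kept under 7 of 12 alternatives, with log2 down to 0.31 (adjusted p = 0.337) after thinning, and was lost with library totals (log2 0.49) and without cKO replicate 10 (log2 0.47). Cone nuclei also carried rod marker UMIs, 36.5 per 10000 UMIs, whose part in these values was not tested.

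Wfs1 (chr5:37106176-37153872, minus strand, 8 exons) was lower in RGC nuclei than in Müller glia, rods and amacrine nuclei. Wfs1 CPM in control RGC nuclei was 5.26, 5.42, 3.22 and 5.29, in control Müller glia 9.77, 38.2, 18.6 and 23.8, in control rods 26.0, 17.2, 12.1 and 8.72, and in control amacrine nuclei 12.3, 11.0, 15.2 and 9.30. Every value of these 3 classes lay above every RGC value. The amacrine values rest on 27 Wfs1 UMIs over the 4 libraries, against 329 in RGC nuclei. Control rods and Müller glia held fewer UMIs of all genes (1364205 and 957252) than amacrine nuclei (2308700), so their lowest Wfs1 values rest on few UMIs. Wfs1 was called lower in RGC nuclei than in Müller glia (log2 -2.09 ± 0.46, edgeR adjusted p = 2.50e-05), rods (log2 -1.54 ± 0.39, adjusted p = 0.00427) and amacrine nuclei (log2 -1.25 ± 0.37, adjusted p = 0.00808) in control libraries. In cKO libraries it was called against Müller glia (log2 -2.28 ± 0.45, adjusted p = 2.23e-06) and rods (log2 -1.06 ± 0.33, adjusted p = 0.0213), but not against amacrine nuclei. The Müller calls were kept under every alternative that tested Wfs1. The rod calls, kept under 10 (control) and 8 (cKO) of 12 alternatives, were lost with the deeper barcodes alone, without control replicate 1 (log2 -1.08) and, in cKO libraries, without replicate 12 or 13 (log2 -1.03 and -0.79), and the amacrine call without control replicate 3 (log2 -0.88).

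Because Wfs1 was so abundant in empty droplets, its levels were also computed with the estimated free-RNA share removed. As stated above, this share can be too low, so more free RNA can remain. Control RGC nuclei then stood at 4.07 ± 1.08 CPM, amacrine nuclei at 11.4 ± 2.51, rods at 13.4 ± 7.19 and Müller glia at 22.0 ± 13.0 CPM, in the same order as before. Bipolar nuclei (3.97 ± 4.25 CPM) and cones (3.93 ± 9.23 CPM), whose unsubtracted means lay above that of RGC nuclei, then lay slightly below it, so whether RGC nuclei hold the lowest mean depends on this step. In cKO rods the level fell from 12.2 to 7.79 ± 6.09 CPM. Müller-gated nuclei also carried vascular marker UMIs, 15.0 per 10000 UMIs, whose part in the Wfs1 value was not tested. Before subtraction bipolar nuclei (5.34 ± 3.62 CPM) and cones (6.81 ± 7.92 CPM) overlapped RGC nuclei for Wfs1.

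The difference between RGC and each other class was itself compared between genotypes. None of 40 tests of the 8 genes was called, with estimates of -0.77 to 0.69 and a smallest unadjusted p of 0.0961. Over all genes 0.0512% were called for amacrine, 0.0582% for bipolar, 0% for rod, 0.00659% for cone and 0.0566% for Müller glia. A call in 1 genotype and not in the other is therefore not shown to differ between them.

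Within RGC nuclei, marker gates for known RGC types asked whether the genes vary among ganglion cells. The gates held 2152 Foxp2, 1746 Cartpt, 628 Chrm2, 342 Opn4/Eomes and 340 Spp1 nuclei. Cartpt marks ON-OFF direction-selective RGCs, Opn4 and Eomes intrinsically photosensitive RGCs and Spp1 alpha RGCs. The Foxp2, Chrm2 and Spp1 gates each rest on 1 gene, so the gates are named by their genes only. Each gate was compared with the sum of the other gates in the same libraries. The 10014 RGC nuclei that passed no RGC gate entered neither side, so a difference holds among gated nuclei only. In control libraries 5 of 37 tests were called, since Wfs1 passed the filter on low counts in only 2 of 5 gates. In the Opn4/Eomes gate 2 of 7 genes tested were called (background 15.3%), in the Cartpt gate 0 of 8 (9.48%), in the Spp1 gate 2 of 7 (20.9%), in the Foxp2 gate 1 of 8 (14.4%) and in the Chrm2 gate 0 of 7 (8.11%). All 5 calls were of Optn or Afg3l2.

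Optn was graded across the gates. Optn in control Spp1 nuclei was at 61.9, 87.2, 65.7 and 64.9 CPM, in Cartpt nuclei at 51.3, 56.5, 39.8 and 59.3, in Chrm2 nuclei at 36.9, 37.9, 45.8 and 53.8, in Foxp2 nuclei at 24.2, 27.7, 26.0 and 23.0, and in Opn4/Eomes nuclei at 13.4, 26.2, 25.0 and 22.4 CPM. The Spp1 values lay above all others, Cartpt overlapped Chrm2, and Foxp2 overlapped Opn4/Eomes, with a gap between these pairs. Highest and lowest means were 3.2-fold apart. Optn was called higher in Spp1 nuclei (log2 0.95 ± 0.13, edgeR adjusted p = 4.77e-07) and lower in Foxp2 (log2 -0.95 ± 0.11, adjusted p = 1.99e-08) and Opn4/Eomes nuclei (log2 -0.81 ± 0.20, adjusted p = 0.00242). Spp1 nuclei were the deepest, with library medians of 13655 to 25236 UMIs against 5051 to 10064 in Foxp2 nuclei. At 2000 UMIs a nucleus, with the gates left as set at full depth, the Optn differences stood at 1.31 and -1.0 and were called. The part of depth in these differences was not tested. The Opn4/Eomes values rest on 2 to 19 UMIs a library, and that call was lost after thinning (log2 -0.63) and under the stricter gate.

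The same comparison in the 4 cKO libraries, added after the control result was seen, called Optn in the same 3 gates. Optn in cKO Spp1 nuclei was at 79.7, 76.2, 93.3 and 109 CPM (log2 1.11 ± 0.11, edgeR adjusted p = 2.33e-11), in Foxp2 nuclei at 40.2, 27.5, 29.9 and 34.5 CPM (log2 -0.77 ± 0.11, adjusted p = 5.23e-07) and in Opn4/Eomes nuclei at 21.1, 17.4, 21.0 and 25.5 CPM (log2 -1.19 ± 0.29, adjusted p = 0.00137). Under the stricter gate the Spp1 call was lost in cKO libraries (log2 0.83, adjusted p = 0.0829), as was that of Opn4/Eomes nuclei, also lost after thinning. In these libraries 1 of 8 genes was called in the Opn4/Eomes gate (background 11.8%), 0 in the Cartpt gate (9.21%), 3 in the Spp1 gate (22%), 1 in the Foxp2 gate (14.9%) and 0 in the Chrm2 gate (8.14%).

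Afg3l2 had the same 2 ends of the order as Optn by control means. So had Opa1 (93.1 CPM in Spp1, 63.4 CPM in Opn4/Eomes nuclei) and Opa3 (16.4 and 11.9 CPM), with overlapping neighbours. Tbk1 and Spg7 were also highest in Spp1 nuclei, while Mfn2 and Wfs1 were not. The median log2 of the 7 genes tested in the control Spp1 gate was 0.34, beside -0.004 over all genes. Afg3l2 in control Spp1 nuclei was at 66.7, 83.2, 103 and 108 CPM and in Opn4/Eomes nuclei at 20.1, 42.8, 44.0 and 37.4 CPM, which do not overlap, with the other gates between (52.0 to 62.0 CPM on average). It was called higher in Spp1 nuclei in control (log2 0.75 ± 0.12, edgeR adjusted p = 7.56e-06) and cKO libraries (log2 0.67 ± 0.10, adjusted p = 5.77e-07), and lower in Opn4/Eomes nuclei in control libraries (log2 -0.58 ± 0.17, adjusted p = 0.0122; kept under 7 of 12 alternatives, -0.42 with adjusted p = 0.575 after thinning, and lost without control replicate 2 or 4, log2 -0.59 and -0.49). After thinning the Spp1 estimates for Afg3l2 were 0.49 and 0.54 and under the stricter gate 0.54 and 0.33, and neither was called under these 2 settings. Tbk1 was called in Spp1 nuclei of cKO libraries (log2 0.56 ± 0.11, adjusted p = 3.57e-05), with 107, 83.7, 75.3 and 98.4 CPM, and this too was lost after thinning (log2 0.42). In control libraries Tbk1 was at 81.0, 67.7, 85.8 and 95.3 CPM in Spp1 nuclei, and its estimate of 0.48 was under the fold limit. Opa1, Opa3, Mfn2 and Spg7 were called in no gate of either genotype.

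**Figure D3:**
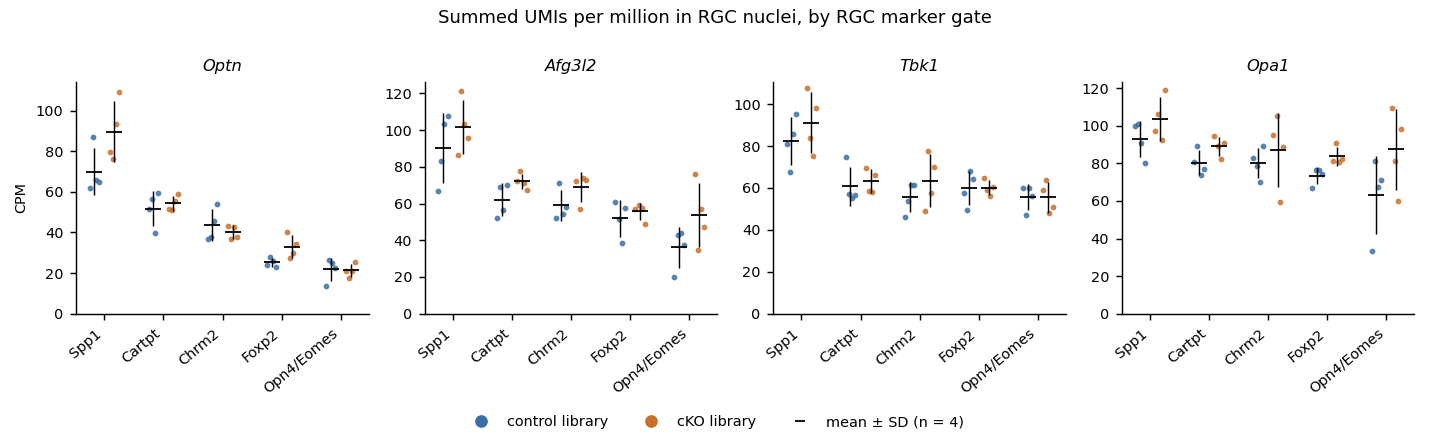
CPM (linear axis from 0) of Optn, Afg3l2, Tbk1 and Opa1 in 5 RGC marker gates, ordered by control Optn. Points are libraries (blue control, orange cKO) and black bars the mean ± SD (n = 4). Optn runs from 69.9 ± 11.7 CPM in Spp1 to 21.8 ± 5.80 CPM in Opn4/Eomes nuclei of control libraries, whereas Opa1 was called in no gate.

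Control and cKO libraries were then compared within each gate. In RGC nuclei edgeR called 0 of the 8 genes and 0 of 17500 genes in all (0%), with 691 genes at an unadjusted p under 0.05 and none of the 8 among them; DESeq2 called 3 genes, none of them listed here. Optn had the smallest unadjusted p, 0.0589 by edgeR (log2 0.16 ± 0.08, edgeR adjusted p = 0.990). In amacrine, bipolar, rod, cone and Müller gates 0 genes in all were called (0% each), and no listed gene reached an unadjusted p under 0.05 in any of 32 tests over the 6 classes (estimates -0.23 to 0.40). In the RGC gates, 0 of 34 tests of these genes were called, with estimates of -0.27 to 0.57 and a smallest unadjusted p of 0.0510 for Optn in Foxp2 nuclei. Over all genes the share called was 0.0376% in the Opn4/Eomes gate, 0.00807% in the Foxp2 gate and 0% in the Cartpt, Spp1 and Chrm2 gates.

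As levels, 2 of the 8 genes had groups that do not overlap in RGC nuclei, beside 3.57% of all genes. Optn was at 39.3, 41.0, 34.2 and 42.0 CPM in control and 46.7, 45.4, 45.0 and 45.6 CPM in cKO libraries, a difference of 6.54 CPM (two-sided exact permutation test over libraries, p = 0.0286). Afg3l2 was at 56.9, 60.1, 56.6 and 60.6 CPM in control and 67.6, 69.7, 62.5 and 63.4 CPM in cKO libraries, a difference of 7.25 CPM (exact permutation p = 0.0286). With 4 libraries a group 0.0286 is the smallest p this test can give, and the test was run on all 8 genes. Neither difference was called by edgeR, which scales by TMM factors and adjusts over all genes. The exact p of the other 6 genes ran from 0.0857 for Opa1 (79.9 ± 3.45 against 85.0 ± 3.26 CPM) to 0.943 for Tbk1 (63.5 ± 6.84 against 63.9 ± 4.43 CPM).

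The mean of all 8 genes was higher in cKO RGC nuclei, but so was that of 72.0% of all 17500 genes on this scale, and 520 of the 625 genes with groups that do not overlap were higher in cKO libraries. The median of all genes was 0.07 on the log2 scale with library totals and 0.01 with TMM scaling. Tbk1 changed sign between the scales, from 0.443 CPM higher in cKO libraries to log2 -0.05. At 2000 UMIs a nucleus the differences of Optn (5.69 CPM, two-sided exact permutation p = 0.229) and Afg3l2 (3.38 CPM, exact permutation p = 0.486) were smaller and their groups overlapped. Under the stricter gate the difference of Optn was 8.52 CPM (exact permutation p = 0.0286), and its groups did not overlap. That of Afg3l2 was 3.86 CPM (exact permutation p = 0.314) with overlapping groups there. Those of Opa3 (-0.0744 CPM), Wfs1 (-0.518 CPM) and Tbk1 (-1.89 CPM) turned negative.

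**Figure D4:**
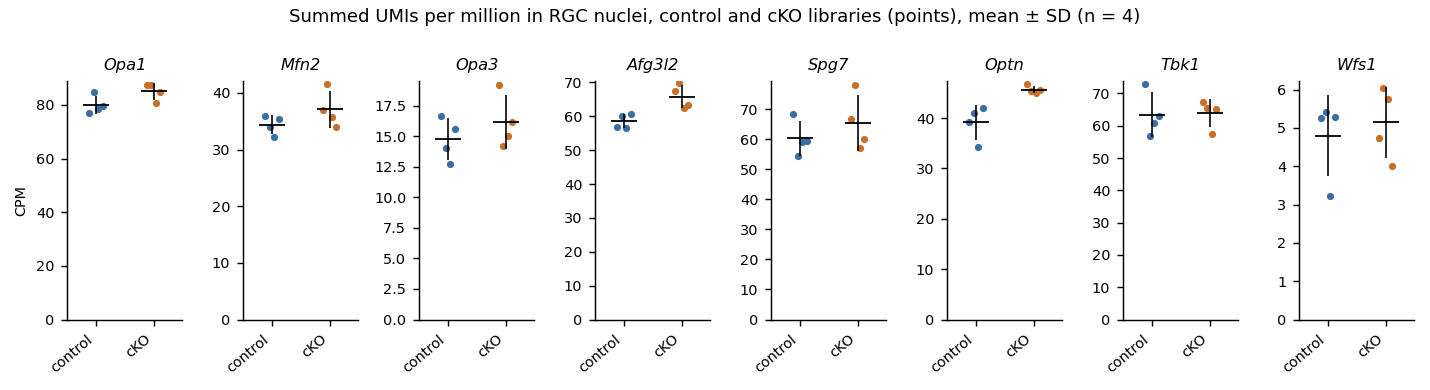
CPM (linear axis from 0, a scale of its own for each gene) of the 8 genes in RGC nuclei of control (blue) and cKO (orange) libraries. Points are libraries and black bars the mean ± SD (n = 4). Only Afg3l2 and Optn have control and cKO points that do not overlap.

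The wider pathways of these genes were read from 6 lists, whose counts stand beside 22.8% of all genes called against amacrine nuclei, 42.9% against bipolar nuclei, 41.3% against rods, 39% against cones and 43% against Müller glia in control libraries. Of 14 genes of mitochondrial fusion and fission, 13 were tested against each class in control libraries. In RGC nuclei 0 were higher than in amacrine, 2 than in bipolar, 4 than in rod, 2 than in cone nuclei and 5 than in Müller glia, and 1 was lower, against rods. In control libraries these shares lie below those of all genes against each class, whereas in cKO libraries 9 of 13 were called higher than in Müller glia (median 0.86, beside 0.23 over all genes and 40.8% called). The control list median was 0.61 against Müller glia and 0.38 against rods, beside medians of all genes of 0.17 and 0.07. Mfn1, the partner of Mfn2 in outer membrane fusion, was called higher in RGC nuclei (114 ± 3.64 CPM) than in bipolar nuclei (61.4 ± 14.2 CPM, log2 0.94), rods (61.4 ± 8.90 CPM, log2 1.17), cones (47.5 ± 32.7 CPM, log2 1.58) and Müller glia (54.2 ± 22.5 CPM, log2 1.25; edgeR adjusted p under the threshold in each), in contrast to the flat levels of Mfn2. Chchd3, a subunit of the complex that shapes cristae, was the gene lower than in rods (150 ± 7.19 against 314 ± 37.6 CPM).

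Of 15 genes of inner-membrane proteases and their partners 14 were tested, of which 0 to 5 were higher and 0 to 2 lower in RGC nuclei, with list medians of -0.18 (rods, beside 0.07 over all genes) to 0.44 (cones, beside 0.35). The share called was above that of all genes against cones alone, with 6 of 14. Oma1, the protease that cleaves OPA1 under stress, was higher in RGC nuclei (17.9 ± 1.71 CPM) than in amacrine nuclei (11.2 ± 6.02 CPM) and lower than in rods (39.6 ± 14.5 CPM) and cones (47.9 ± 7.18 CPM). Mcu, the pore of the mitochondrial calcium uniporter, was lower than in bipolar nuclei (170 ± 0.977 against 444 ± 31.1 CPM, log2 -1.32) and higher than in cones (108 ± 46.4 CPM, log2 1.23).

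In the list of optineurin and TBK1 autophagy genes, 18 of 20 were tested. Against rods 2 were higher and 5 lower in RGC nuclei, against bipolar nuclei 3 and 4, against amacrine nuclei 0 and 2, against cones 5 and 1, and against Müller glia 4 and 1, in each case a share below that of all genes. Like Optn, Azi2, an adaptor of TBK1, and Pink1, the kinase that starts mitophagy, were lower in RGC nuclei than in rods (53.3 ± 2.89 against 160 ± 24.5 CPM and 19.2 ± 1.10 against 58.3 ± 6.22 CPM). Tbkbp1, of the same list, went the other way against rods (21.8 ± 1.72 against 6.54 ± 6.03 CPM). Sqstm1, which encodes the autophagy receptor p62, was higher in RGC nuclei (58.8 ± 3.37 CPM) than in bipolar nuclei (34.9 ± 9.60), rods (26.7 ± 10.1) and cones (26.6 ± 19.4 CPM). The list median was -0.08 against rods, beside 0.07 over all genes.

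Of 12 wolframin and ER stress genes 11 were tested, with 1 to 4 higher and 1 or 2 lower in RGC nuclei against each class. Against amacrine nuclei 3 of 11 and against rods and cones 6 of 11 were called, shares above those of all genes, with rod and cone list medians of 0.21 and 0.38 beside 0.07 and 0.35. Unlike Wfs1, Ncs1, a calcium sensor that binds wolframin, was called higher in RGC nuclei (62.3 ± 4.54 CPM) than in each of the 5 other classes (12.6 ± 5.80 to 39.8 ± 9.42 CPM). Itpr1, the calcium release channel of the endoplasmic reticulum, was higher than in 4 of them (200 ± 10.6 against 33.8 ± 11.9 CPM in bipolar nuclei), and Ern1, a sensor of the unfolded protein response, was lower than in rods (23.6 ± 1.09 against 88.6 ± 17.2 CPM).

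All 15 genes of other inherited optic neuropathy were tested, with 2 or 3 higher and 0 to 2 lower in RGC nuclei against each class, a share below that of all genes in each. Kif5a, the motor of fast axonal transport, was higher in RGC nuclei (234 ± 14.3 CPM) than in every other class (52.8 ± 19.9 CPM in Müller glia to 158 ± 36.5 CPM in amacrine nuclei). Of 24 other glaucoma genes 13 to 17 were tested. In RGC nuclei 3 were higher and 4 lower of 13 against amacrine nuclei (list median -0.02), and 3 and 1 of 15 against bipolar nuclei (0.33). Against rods they were 2 and 5 of 15 (0.05), and against cones 4 and 4 of 14 (0.73). The shares called lie above those of all genes against amacrine nuclei, rods and cones, and below against bipolar nuclei. Against Müller glia 3 were higher and 10 lower in RGC nuclei (list median -1.19 beside 0.17 over all genes, and 13 of 17 called beside 43%). Cav1, a caveolar coat protein, and Efemp1, an extracellular matrix protein, were at 301 ± 65.8 and 359 ± 56.9 CPM in Müller glia and at 1.25 ± 0.392 and 2.47 ± 0.405 CPM in RGC nuclei. Müller-gated nuclei held 15.0 vascular marker UMIs per 10000, against 0.0599 in RGC nuclei, whose part in these levels was not tested. No gene of the 6 lists was called between control and cKO libraries in any gate.

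Finally, the genes whose level most resembled each listed gene were sought over the means of 11 gates (6 classes and 5 RGC gates) in control libraries, among 7197 genes at 20 CPM or more in RGC nuclei. These correlations describe 11 points that share libraries and differ in depth, and the 5 RGC gates lie within the RGC class. The genes named are the closest of 7197, and such a choice alone gives high values of r, so they are no test. The means of Wfs1 include values as low as 2.34 ± 1.23 CPM, in Chrm2 nuclei. Optn was most like Atp11b (Pearson r = 0.96), Immt (0.95) and Gm49417 (0.94), and Opa3 most like Sod1 (0.98), Hint1 (0.97) and Mrpl53 (0.97). Afg3l2 was most like Dlat, Sfxn3 and A930029G22Rik (0.91 to 0.93), Spg7 like Ube4a, Mrps17 and Zcchc7 (0.93 to 0.95), and Mfn2 like Bin1, Mast2 and 1500011B03Rik (0.93 to 0.94). Opa1 was most like Gm28198, Ralgapb and Lgals8 (0.83 to 0.92), Tbk1 like Acss2, Carnmt1 and Col11a1 (0.91 to 0.93), and Wfs1 like Pibf1, Cep192 and Cpne1 (0.91 to 0.92).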

How the data were processed

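The matrices deposited by the authors list unnormalised UMI counts for every barcode, made with Cell Ranger 7.0.0 on GRCm39 per the submitters' processing notes. Whether antisense or intronic reads were counted is not given in the sources used here; 7 of the 8 genes (not Opa1) overlap a gene on the opposite strand. From these counts, barcodes were called as nuclei by an order-of-magnitude step and an ambient test (adjusted p under 0.001, at least 500 UMIs). They were filtered on quality (at least 200 genes, at most 5% mitochondrial UMIs, 5 median absolute deviations on depth). The 1377 barcodes (3.79%) with the highest Scrublet scores in their library (scanpy 1.11.5) were removed as doublets. Their number was set by an assumed rate of 0.8% per 1000 nuclei, whereas Scrublet's own threshold flagged 661. Of 12695972 barcodes 45918 were called and 34935 kept; no library pair shared more than 11 barcodes. A class gate needed 3 UMIs from 2 markers of 1 class and 2 of every 3 of the nucleus's marker UMIs. An RGC gate needed 3 UMIs of its list, from 1 gene or more, and 2 of every 3 UMIs over the RGC gate lists. UMIs were summed per gate and library, with gates of over 10 nuclei and 1000 UMIs tested by edgeR 4.0.16 (filterByExpr, TMM, quasi-likelihood; library as a block between gates). The Tbr1, Zic1 and Neurod2 gates had too few nuclei. Calls needed adjusted p under 0.05 and log2 beyond 0.5. The fits were tested on simulated data. Levels were compared by exact permutation over libraries. Alternatives were DESeq2 1.42.0, no count filter, other nucleus calls, a stricter gate, doublets kept, thinning, no block and each library left out, and, added after seeing the data, library totals in place of TMM, free-RNA subtraction and the gate comparison in cKO libraries. Free RNA was read from barcodes ranked 45000 to 90000. Named list genes were the up to 2 highest and 2 lowest called per list and class, of which a part is given. The 8 genes and all lists were chosen with earlier results of these data known. Gene positions are from GENCODE M39 (GRCm39). Of the 8 genes, 7 had a RefSeq promoter. Nothing states that libraries came from separate cohorts, so p-values measure the spread between these pools.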

Additional observations from a re-analysis of the deposited data

Results flagged for a closer look

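Of 176 groups of 4 libraries, 9 held a library far from the other 3 by Dixon's test at the 95% level, which chance gives in about 5% of groups. In RGC nuclei, control replicate 3 had Wfs1 at 3.22 CPM, against 5.26 to 5.42 CPM in the other control libraries. In amacrine nuclei Mfn2 was at 27.4 CPM in control replicate 2 (others 45.1 to 45.7). In rods Tbk1 was at 62.9 CPM in cKO replicate 13 (others 52.0 to 53.8). In Müller glia Tbk1 was at 13.9 CPM in cKO replicate 11 (others 50.6 to 57.2) and Afg3l2 at 5.96 CPM in control replicate 4 (others 34.0 to 39.1). Among RGC gates, Optn was at 87.2 CPM in Spp1 nuclei of control replicate 2 (others 61.9 to 65.7). Cartpt nuclei of control replicate 1 held Wfs1 at 6.96 CPM (others 3.48 to 3.97) and Tbk1 at 74.8 CPM (others 55.2 to 57.1). Chrm2 nuclei of cKO replicate 11 held Afg3l2 at 57.2 CPM (others 72.1 to 74.1).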

How the results depend on the processing

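Of 36 differences called for the 8 genes between classes or gates, 10 were kept under every alternative run: Optn against rods in both genotypes, in the Foxp2 gate in both, in the Spp1 gate in control and against bipolar nuclei in cKO libraries, Wfs1 against Müller glia in both, and Tbk1 against cones and Spg7 against Müller glia in cKO libraries. One estimate turned sign, Opa3 against rods in cKO libraries (0.24 with order-of-magnitude nuclei only). Against other classes in control libraries 8 tests were called with DESeq2, 7 under the stricter gate and 6 after thinning, in place of 13 (10 to 14 with a library left out), and in cKO libraries 6 after thinning (9 to 12). Over the RGC gates 3 were called under the stricter gate and 3 after thinning in control libraries (4 to 6 with a library left out), and 1 and 2 in cKO libraries (5 to 5). Between genotypes 0 were called under every alternative, also for the difference of differences.

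In RGC levels (cKO minus control) the stricter gate gave Opa3 -0.0744, Wfs1 -0.518, Tbk1 -1.89, Afg3l2 3.86 and Optn 8.52 CPM. Thinning gave Optn 5.69, Afg3l2 3.38 and Mfn2 4.85 CPM (exact permutation p = 0.0286 for Mfn2). With a library left out, 3 against 4 cannot pass the threshold; the ranges were 4.10 to 6.74 for Opa1, 0.375 to 2.05 for Opa3, -0.18 to 0.721 for Wfs1, 4.91 to 7.51 for Optn, -1.72 to 3.63 for Tbk1, 1.18 to 3.75 for Mfn2, 5.93 to 8.35 for Afg3l2 and 1.00 to 8.08 CPM for Spg7. No paired analysis was possible because control and cKO libraries share no replicate numbers; without the library block, 12 and 13 tests were called against other classes and 5 and 5 over the gates.

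Counts over all genes moved by over 1.5 times under several settings. In control libraries the stricter gate called 1711 genes against amacrine (main 3289) and 2632 against Müller glia (6316), order-of-magnitude nuclei 2598 against rods (5998), and thinning 1934 against amacrine and 1763 against rods. In cKO libraries these were 1197 (3134), 2601 (6264), 2925 (6722), 1867 and 2069, and 3437 against cones (5467). RGC gates called 959 to 2482 genes in control (649 to 1343 stricter, 504 to 995 thinned) and 1036 to 2804 in cKO libraries (195 to 1168, 493 to 1006; DESeq2 678 to 2062). Genotype tests called 0 to 2 genes a gate, and 1 to 48 without a count filter. The stricter gate gave 0 to 11 in the RGC gates, and a library left out gave up to 8 in the classes (without control replicate 4) and up to 10 in the RGC gates (without cKO replicate 13). The cause of these shifts was not tested.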
